A study of Homo sapiens with 40 samples.

Results

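The biliary and progenitor marker genes described here are KRT7, KRT19, KRT18, EPCAM, SOX9, CFTR, SPP1, CD24 and PROM1, which are 9 of the 56568 gene names in the deposited transcript tables. They were taken by gene name, and the FPKM of all transcripts with that name were summed in each library, with values below 0 set to 0. FPKM correct the number of sequenced fragments for transcript length and for library size, so that levels of different genes can be compared per length. The members were followed over all 8 treatment groups of the series.

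The cultures were HepaRG, a human hepatic cell line that was bought already differentiated. By the labels, the cultures held primitive biliary epithelial cells beside mature hepatocytes at the start of exposure. From day 8 to day 14 all groups received a medium with 2% fetal bovine serum and 1% DMSO. Each group had 5 libraries of ribosome-depleted RNA: a solvent control, 3 groups with PCB 126 (100 pM, 10 nM or 1 µM), 3 with glyphosate (10 µg/L, 1 mg/L or 0.1 g/L) and 1 with Roundup (10 µg/L). PCB 126 is a polychlorinated biphenyl and a ligand of AhR, the aryl hydrocarbon receptor, as dioxins are, glyphosate is a herbicide, and Roundup is a formulation that contains it. All 40 libraries came from 1 cell line, and nothing in the labels says whether the 5 libraries of a group were separate cultures, so the p-values below measure the spread between libraries, which may be technical.

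Cholangiocytes, the epithelial cells that line bile ducts, carry simple-epithelial keratins, adhesion proteins and ion channels by which they are told from hepatocytes. Bipotent liver progenitors share many of these genes, and HepaRG cells pass through a progenitor-like state before they become hepatocyte-like and biliary-like. Notch and YAP signalling are known to favour the biliary fate, and SOX9 is a transcription factor that marks ducts and progenitors.

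In the control group the members covered a wide range of levels. KRT19, the type I keratin of bile duct cells, stood at 303 ± 85.6 FPKM (SD, n = 5), which was rank 73 among the 37703 genes above 0 in that group. CD24, a small surface glycoprotein of progenitor cells, stood at 78.3 ± 14.6 FPKM. SPP1, which encodes osteopontin, a secreted phosphoprotein made by bile duct epithelium, stood at 47.8 ± 11.3 FPKM. These 3 members, together with SOX9 at 8.75 ± 2.23 FPKM, were above 0 in all 40 libraries.

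The other members were low or poorly resolved. KRT7, the type II keratin that pairs with KRT19 in ducts, stood at 0.663 ± 0.259 FPKM in the control group. CFTR, the chloride channel of the cholangiocyte apical membrane, was listed between 0.123 and 0.462 FPKM in the 5 control libraries. PROM1, a membrane protein (CD133) of progenitors, lay between 0.0283 and 0.178 FPKM. EPCAM, the epithelial cell adhesion molecule, was listed at 0 in 4 of the 5 control libraries and in 33 of all 40. KRT18, the type I keratin shared by hepatocytes and bile duct cells, had 30.2 ± 37.5 FPKM, an SD larger than its mean.

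By gene name, the order of the control means was KRT19, CD24, SPP1, KRT18, SOX9, KRT7, CFTR, PROM1 and EPCAM. KRT19 did not overlap CD24, since its lowest control library had 189 FPKM and the highest CD24 value was 93.3 FPKM. CD24 and SPP1 overlapped between 54.3 and 58.2 FPKM. KRT18 overlapped both SPP1 and SOX9, and KRT7, CFTR, PROM1 and EPCAM each overlapped the next in order, whereas SOX9, with a lowest value of 5.90 FPKM, lay above the highest KRT7 value of 0.907 FPKM. Measured against their label, the cultures therefore held RNA of KRT19, CD24, SPP1 and SOX9, while by gene name the duct markers KRT7, CFTR and EPCAM were under 1 FPKM in every control library. With unnamed transcripts of its locus KRT7 reached 1.02 FPKM there. Counted in the same way, KRT18 had 105 ± 48.0 FPKM, a mean above that of CD24 and below that of KRT19.

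Where each member lies was read from the deposited coordinates, which are on GRCh38. KRT7 spans chromosome 12, 52232520 to 52252186, and KRT18 lies further along the same strand at 52948871 to 52952901. KRT19 is on the minus strand of chromosome 17, 41523617 to 41528308, and SOX9 is on the plus strand of the same chromosome, 72121020 to 72126420. SPP1 and PROM1 are both on chromosome 4, at 87975650 to 87983426 and 15963076 to 16084378. CFTR spans 117465784 to 117715971 on chromosome 7, CD24 spans 106969831 to 106975627 on the minus strand of chromosome 6, and EPCAM spans 47345158 to 47387601 on chromosome 2.

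The 40 libraries did not all resemble their group. On the first principal component of each table, computed without the members, 5 libraries stood apart from the rest: control replicate 5, replicates 3 and 5 at 10 nM PCB 126 and replicates 1 and 5 at 1 µM in the PCB 126 table, and control replicate 5, glyphosate 10 µg/L replicate 5, glyphosate 0.1 g/L replicate 2 and Roundup replicates 4 and 5 in the glyphosate table. In these libraries 18.2 to 29.7% of the FPKM fell on assembled transcripts with no gene name, against 11.2 to 18.0% in the others. Their FPKM summed to between 255292 and 332974, against 311488 to 513059 in the others. Their low sums move with low values of the members, and their part in the results was not tested beyond the values given without them. The number of reads behind a value is not in these files.

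**Figure D1:**
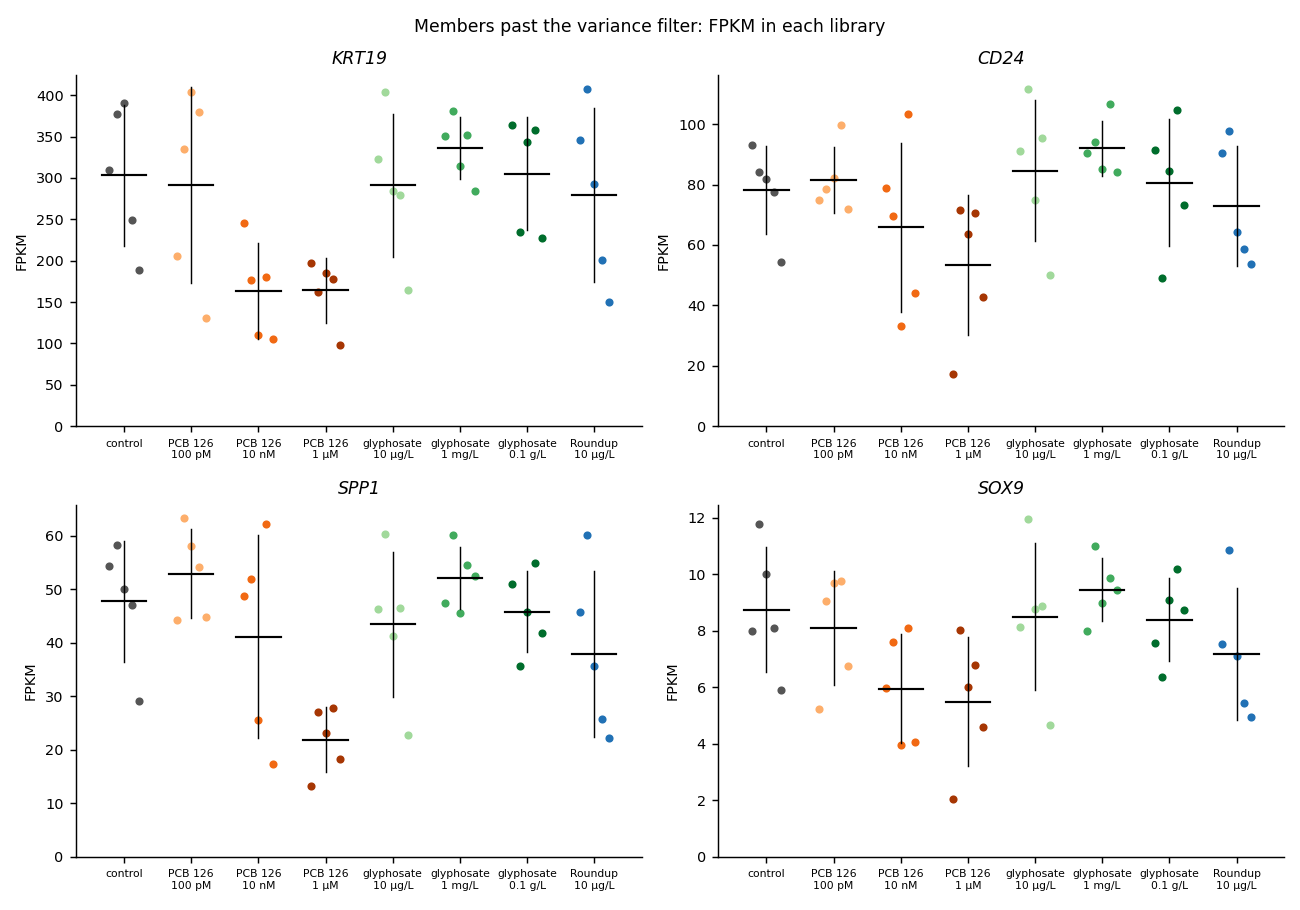
FPKM of KRT19, CD24, SPP1 and SOX9 on linear axes from 0, with 1 point for each of the 40 libraries, grouped by treatment along the x axis. Horizontal lines are group means and vertical lines are 1 SD (n = 5), and the 5 SPP1 values at 1 µM PCB 126 lie below all 5 control values.

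SPP1 was the one tested member whose values at 1 µM PCB 126 did not overlap the control group. The control libraries had 54.3, 58.2, 50.1, 47.1 and 29.0 FPKM, and the 1 µM libraries had 13.3, 27.0, 23.1, 27.9 and 18.3 FPKM. The gap is narrow, since control replicate 5, a library that stood apart, has the lowest control value. Of the 9755 genes tested, 2.35% had groups without overlap at 1 µM and 1.64% were lower without overlap. The log2 fold change of SPP1 was -1.10 ± 0.31 (SE), with an adjusted p of 0.0619 in limma over all tested genes, so SPP1 did not pass the threshold of 0.05 with the values as deposited.

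That call turned on the scaling and on the libraries that entered the fit. With each library scaled to a common 75th percentile the log2 fold change was -0.94 and the adjusted p 0.0102, and after quantile normalization the values were -0.91 and 0.000578. Without the libraries that stood apart the change was -0.99 with an adjusted p of 0.00149, and without control replicate 5 alone it was -1.26 with an adjusted p of 0.0225. SPP1 kept a negative sign in all 23 alternatives and passed the threshold in 8 of them, and the adjusted p ranged from 0.000578 to 0.313. In bulk RNA, fewer cells of a type and less of an RNA in each cell cannot be told apart, and this holds for every member.

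At the lower doses SPP1 had no such gap. The 10 nM libraries had 48.7, 51.9, 25.6, 62.3 and 17.3 FPKM, and the 2 low values are those of the libraries that stood apart. The log2 fold change at 10 nM was -0.32 ± 0.31 (adjusted p = 0.865 in limma), and without the libraries that stood apart it was 0.05. At 100 pM the libraries lay between 44.3 and 63.3 FPKM, within or above the range of the control group.

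The SPP1 transcripts were unevenly resolved. ENST00000395080 carried on average 68.5% of the SPP1 FPKM, ENST00000360804 carried 13.2% and ENST00000237623 carried 11.3%. In 1 library, replicate 1 at 1 µM, all 13.3 FPKM were assigned to ENST00000509659, which averaged 2.61% of the gene. The sum over transcripts was therefore used, and the split between isoforms was not compared between groups.

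The sequence upstream of SPP1 is shown because this is the member with the non-overlapping values. Promoter windows were at hand for 4 of the 9 members, CFTR, SPP1, CD24 and PROM1, in 9 windows from RefSeq on GRCh38.p14. The bases shown run from 250 to 51 before the RefSeq start of SPP1, chr4:87975464-87975663 on the plus strand, and capitals mark the letters of the SOX core.
SPP1: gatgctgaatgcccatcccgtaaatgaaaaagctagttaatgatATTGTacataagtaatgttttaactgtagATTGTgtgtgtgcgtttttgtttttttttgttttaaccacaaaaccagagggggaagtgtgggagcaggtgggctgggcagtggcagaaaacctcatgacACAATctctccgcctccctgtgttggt
Both strands of the 250 bases before each start were searched for ACAAT, the core bound by SOX factors, for GCGTG, the core of the element bound by AhR, and for GTGGGAA, the sequence bound by RBPJ, the DNA-binding partner of Notch. The SPP1 window held ACAAT or its reverse complement, ATTGT, 3 times, first bases 206, 177 and 77 before the start, and neither of the other motifs. Of all 35116 windows in the table, 24.6% held the SOX core at least once, 32.2% the AhR core and 5.43% the RBPJ sequence. The share of windows with 3 SOX cores was not computed. The SPP1 positions count from the RefSeq start, 87975714. ENST00000395080, the leading SPP1 transcript, begins at 87975688, inside the searched window, so counted from its start the distances would be shorter. ENST00000614857, which averaged 0.00916% of SPP1, begins at 87975650, inside the bases shown. The CFTR window held none of the 3 motifs. Among the CD24 windows, 1 of 3 held the SOX core, and another held both the AhR core and the RBPJ sequence. The latter precedes the start of ENST00000622315, which averaged 0.621% of the CD24 locus. The window before ENST00000619133, the leading CD24 transcript, held none of the 3 motifs. Among the PROM1 windows 2 of 4 held the AhR core. None of the PROM1 windows lies directly before the start of ENST00000505450, which averaged 82.1% of PROM1. These letters are descriptions of the windows and no binding was measured.

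KRT19 was lower on average at both higher doses of PCB 126. The control libraries had 309, 378, 391, 249 and 189 FPKM, the 10 nM libraries had 245, 176, 110, 181 and 106 FPKM, and the 1 µM libraries had 197, 162, 185, 178 and 97.9 FPKM. The highest 10 nM and 1 µM values reached into the control range, which went down to 189 FPKM. At 100 pM the values ran from 130 to 404 FPKM and spanned the whole control range.

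The log2 fold change of KRT19 was -0.91 ± 0.32 at 10 nM (adjusted p = 0.613 in limma) and -0.87 ± 0.32 at 1 µM (adjusted p = 0.203). Neither passed the threshold. Over all alternatives the change stayed between -1.07 and -0.59 at 10 nM and between -1.03 and -0.59 at 1 µM, and no alternative gave an adjusted p under 0.05, the lowest being 0.0604 at 1 µM. Nearly all of the KRT19 signal, on average 96.5% of the locus, was in ENST00000361566.

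SOX9, which has a single transcript in the tables, ENST00000245479, had 7.99, 11.8, 10.0, 8.08 and 5.90 FPKM in the control group. At 1 µM it had 2.05, 8.03, 6.00, 6.79 and 4.59 FPKM, and the groups overlapped. The log2 fold change was -0.65 ± 0.29 (adjusted p = 0.313 in limma). At 10 nM the values were 5.99, 7.61, 3.94, 8.10 and 4.07 FPKM, with a log2 fold change of -0.51 ± 0.29 (adjusted p = 0.865). The lowest SOX9 value of the series, 2.05 FPKM, was in replicate 1 at 1 µM, which stood apart, and without such libraries the change at 1 µM was -0.39.

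CD24 had 93.3, 84.3, 81.9, 77.6 and 54.3 FPKM in the control group and 17.3, 71.7, 63.8, 70.7 and 42.9 FPKM at 1 µM. Its log2 fold change was -0.68 ± 0.34 (adjusted p = 0.375 in limma), and -0.29 without the libraries that stood apart, since the 2 lowest CD24 values at 1 µM are theirs. At 10 nM the values ran from 33.2 to 103 FPKM, with a log2 fold change of -0.33 ± 0.34 (adjusted p = 0.865). The CD24 signal was split between ENST00000619133, with 74.8% of the locus on average, and ENST00000606017, with 20.9%. In control replicate 2 the first stood at 0.363 and the second at 60.3 FPKM, the reverse of the other control libraries, and when the most abundant transcript stood for the gene the CD24 change at 1 µM was 0.40. A named copy of the gene, CD24P4, had a median of 7.14 FPKM, which was 8.59% of the FPKM of gene and copies, and reads shared between them could have been assigned to either.

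**Figure D2:**
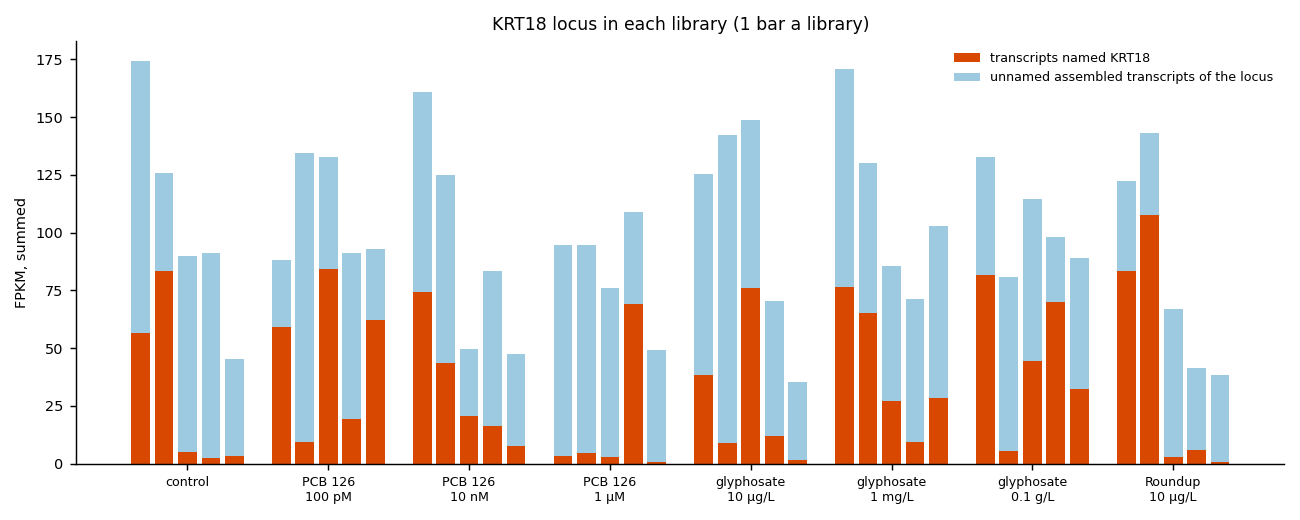
Summed FPKM at the KRT18 locus in each of the 40 libraries, 1 bar a library, by treatment group, with transcripts named KRT18 in orange and unnamed assembled transcripts of the same locus and strand in blue. The named part varies from 0.874 to 108 FPKM, whereas the whole bar varies from 35.5 to 174 FPKM.

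KRT18 was the member whose gene name captured the least of its locus. Named transcripts had 56.4, 83.4, 5.22, 2.33 and 3.44 FPKM in the 5 control libraries, a coefficient of variation of 124%. An assembled transcript without a gene name, MSTRG.8895.7, with 5 exons and 2458 bases at 52949073 to 52952993 of chromosome 12, averaged 67.7% of the locus, and unnamed transcripts together held 24.9 to 98.1% of it (median 70.9%), and held more of it than the named ones in 29 of 40 libraries. Most of the named signal was in ENST00000546656 and ENST00000548496, transcripts of 2 exons each.

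With the unnamed transcripts added, a choice made after the data were seen, the control libraries had 105 ± 48.0 FPKM, a coefficient of variation of 45.6%. The 10 nM group then had 93.4 ± 49.1 FPKM and the 1 µM group 84.7 ± 23.1 FPKM. By name, the log2 fold change of KRT18 was 0.93 ± 0.89 at 10 nM (adjusted p = 0.865 in limma) and -1.04 ± 0.89 at 1 µM (adjusted p = 0.594). By locus it was -0.20 at 10 nM and -0.23 at 1 µM, so the sign at 10 nM turned with the choice of transcripts. The tables also name 67 KRT18 copies, whose summed FPKM had a median of 22.4, or 17.9% of gene and copies, and KRT18 values are uncertain for this reason too.

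**Figure D3:**
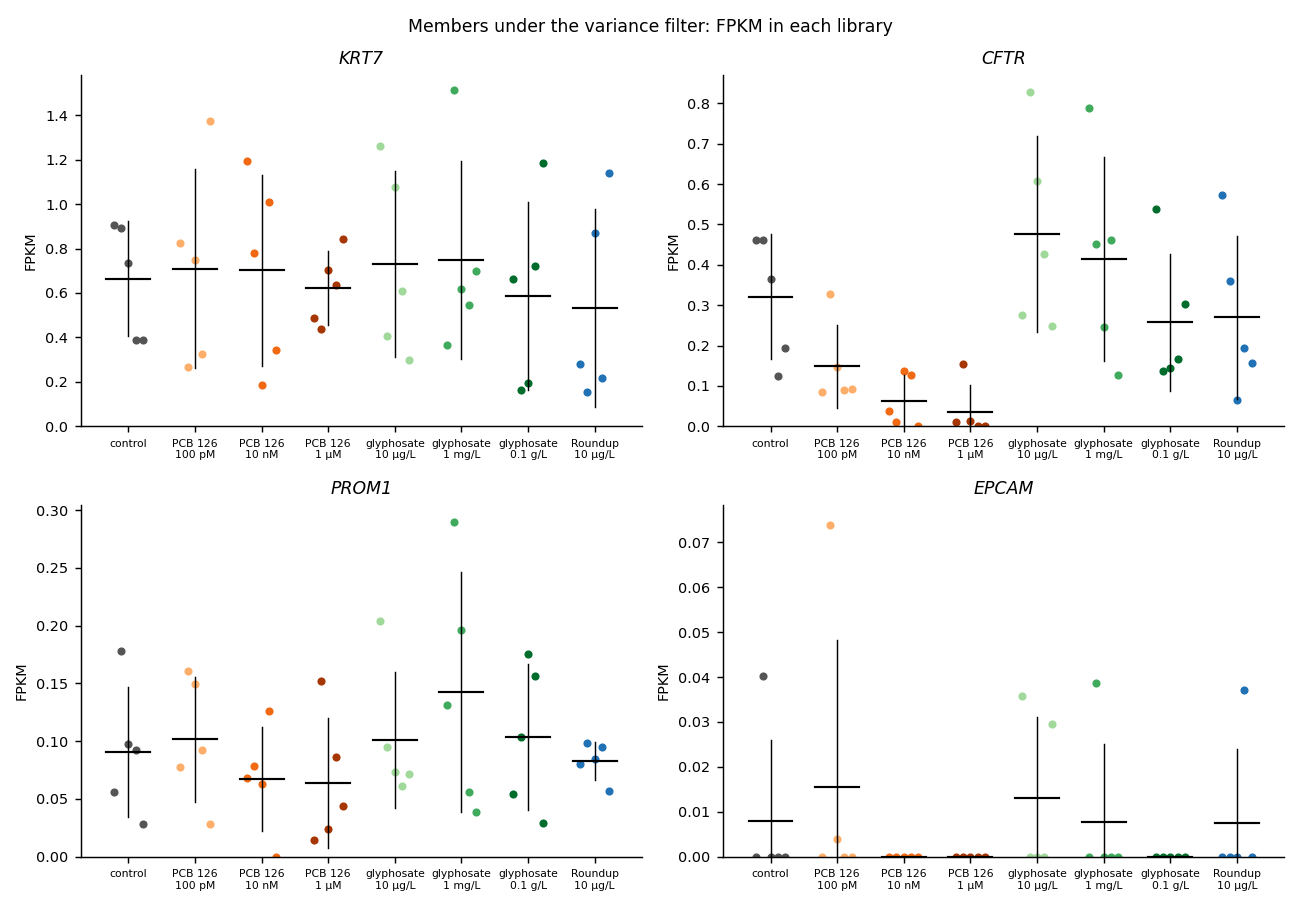
FPKM of KRT7, CFTR, PROM1 and EPCAM on linear axes from 0, with 1 point for each of the 40 libraries, by treatment group. Lines are group means and 1 SD (n = 5), and the CFTR values at 10 nM and 1 µM PCB 126 stay at or under 0.154 FPKM.

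KRT7, CFTR, PROM1 and EPCAM had a variance under 1 in both tables and so did not enter the main test, which covered the other 5 members. CFTR had 0.462, 0.462, 0.364, 0.123 and 0.195 FPKM in the control group. It had 0.0854, 0.327, 0.147, 0.0906 and 0.0923 FPKM at 100 pM, and 0.0383, 0.0113, 0.137, 0.128 and 0 FPKM at 10 nM. At 1 µM it had 0.00995, 0.154 and 0.0118 FPKM in 3 libraries and was listed at 0 in 2. The median thus went lower from dose to dose, yet each dose still overlapped the lowest control value of 0.123 FPKM.

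In the fit without a filter on low values, the difference of CFTR on the log2(FPKM + 1) scale was -0.20 ± 0.08 at 100 pM, -0.31 ± 0.08 at 10 nM (adjusted p = 0.43 in limma) and -0.35 ± 0.08 at 1 µM (adjusted p = 0.0631). None passed the threshold, and at such levels this scale understates a fold. The tables give no number of reads behind values this low, and a gene listed at 0 may have been missed. CFTR stayed above 0 in all libraries of glyphosate and Roundup, where it lay between 0.0641 and 0.8285 FPKM.

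KRT7 lay between 0.153 and 1.51 FPKM over the 40 libraries, and its group means, from 0.532 with Roundup to 0.749 with glyphosate at 1 mg/L, differed by less than the SD of 0.259 FPKM in the control group. This did not hold with the unnamed transcripts of the locus, of which MSTRG.8886.12 averaged 26.9% of it: the control group then had 0.888 ± 0.112 FPKM and the group means ran from 0.805 FPKM at 10 nM to 1.27 FPKM at 100 pM PCB 126. Every treated group still overlapped the control range of 0.737 to 1.02 FPKM. PROM1 lay between 0 and 0.29 FPKM. EPCAM was above 0 in 7 of 40 libraries, never over 0.0738 FPKM, and was listed at 0 in all libraries of PCB 126 at 10 nM and 1 µM and of glyphosate at 0.1 g/L.

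**Figure D4:**
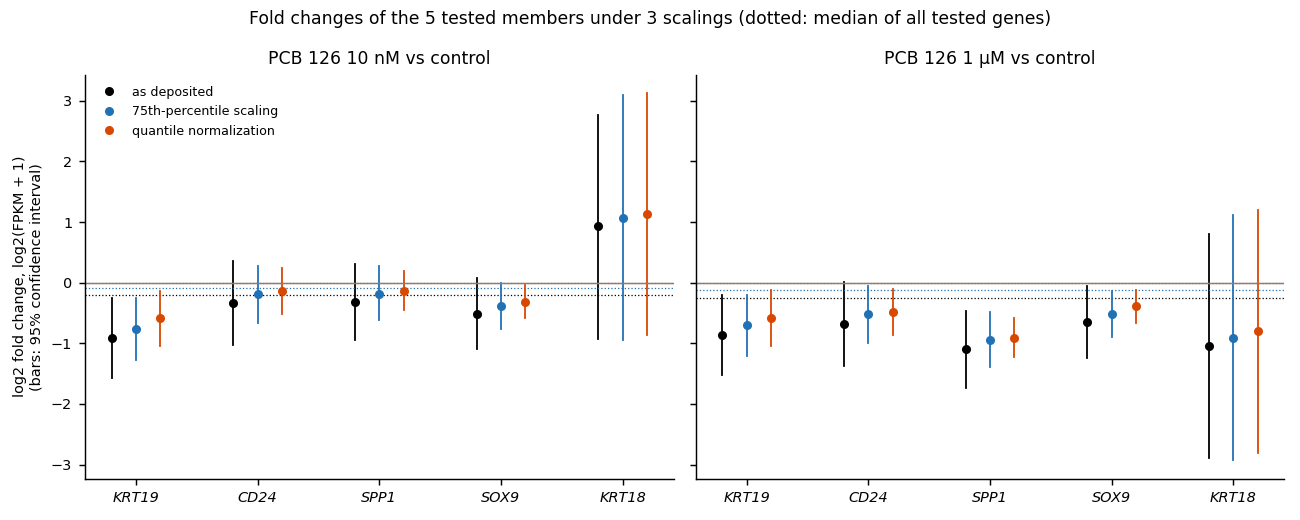
Log2 fold changes of the 5 tested members against the control group at 10 nM (left) and 1 µM PCB 126 (right), on the log2(FPKM + 1) scale, for the values as deposited, scaled to the 75th percentile and quantile normalized. Points are estimates, vertical bars are 95% confidence intervals, and dotted lines are the median of all tested genes; at 1 µM as deposited the points run from -1.10 to -0.65 and that median is -0.26.

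Over the list, no member passed the threshold at any dose of PCB 126 with the values as deposited. The share of all tested genes that passed was 0% at 100 pM, 0.205% at 10 nM and 1.87% at 1 µM. Of these, 0.0615% at 10 nM and 1.22% at 1 µM were lower. SPP1 at 1 µM apart, no tested member had groups without overlap, against 0.164% of all genes at 100 pM and 0.513% at 10 nM. At 100 pM, where limma called 0 genes, 116 genes had an unadjusted p under 0.05, and none of the other settings called a member. At 1 µM the log2 fold changes of all 5 tested members were below 0, as were those of 79.2% of all tested genes, with a median of -0.87 over the members and -0.26 over all genes. At 10 nM 4 of the 5 were below 0, with a median of -0.33 against -0.21 over all genes, of which 83.3% were below 0. The whole distribution was thus shifted towards lower values at both doses, and scaling to the 75th percentile brought the median of all genes to -0.08 at 10 nM and -0.12 at 1 µM.

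No member passed the test with glyphosate or Roundup. The comparisons were the 3 doses of glyphosate and Roundup, each against control, and Roundup against glyphosate at the same labelled dose of 10 µg/L. In each, 0 of the 5 tested members passed the threshold, and 0% of the 9533 genes tested did. All 5 members overlapped between the groups in each comparison, where 0.0524%, 0.178% and 0.0839% of all genes did not overlap for the 3 glyphosate doses in rising order, 0.042% for Roundup against control and 0.105% for Roundup against glyphosate. At an unadjusted p under 0.05 there were 95, 125 and 84 genes for glyphosate in rising order of dose, 165 for Roundup against control and 121 for Roundup against glyphosate. The 4 comparisons against control share the control libraries with each other and with PCB 126, and Roundup against glyphosate shares its libraries with 2 of them.

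KRT19 stood at 291 ± 86.3, 337 ± 37.6 and 305 ± 68.6 FPKM with glyphosate from the lowest to the highest dose and at 280 ± 105 FPKM with Roundup, against 303 ± 85.6 FPKM in the control group. SPP1 stood at 43.4 ± 13.6, 52.0 ± 5.79 and 45.8 ± 7.56 FPKM with glyphosate and at 37.9 ± 15.5 FPKM with Roundup. Its Roundup libraries had 45.8, 60.1, 35.6, 25.8 and 22.2 FPKM, and the 2 lowest are those that stood apart. SOX9 means ranged from 7.17 with Roundup to 9.45 FPKM with glyphosate at 1 mg/L, and CD24 means from 72.99 with Roundup to 92.1 FPKM with glyphosate at 1 mg/L. Each of these means lies within 1 SD of the control mean, which is a spread of single libraries, and no direction was read from them. Set against the control library with the same replicate number, SOX9 with Roundup was lower in 5 of 5 (log2 difference from -0.50 to -0.08). SPP1 and CD24 were lower in 4 of 5 and KRT19 in 3 of 5. The median log2 fold change of all tested genes with Roundup was -0.18. These counts were not tested.

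Roundup and glyphosate were compared at the same labelled dose of 10 µg/L for the 5 tested members, in 1 pair of groups. The labels do not say whether the Roundup dose counts glyphosate or the whole formulation. Glyphosate is the declared herbicidal compound of both, and Roundup adds co-formulants. For KRT19 the 95% confidence interval of the log2 difference, Roundup minus glyphosate, was -0.65 to 0.47, for SOX9 it was -0.69 to 0.27, for SPP1 it was -0.76 to 0.32, for CD24 it was -0.70 to 0.29, and for KRT18 by name it was -2.32 to 1.87. The adjusted p was 0.974 in limma for each of the 5. These intervals leave room for differences of that size in either direction.

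The members were then set against hepatocyte genes of the same library. A difference of log2(FPKM + 1) values within a library cancels a scaling common to both genes, except for what the added 1 leaves. That remainder is larger for genes of low FPKM, such as SOX9. The mean of KRT19, SOX9, SPP1 and CD24 minus the mean of the 10 hepatocyte genes was -2.03 ± 0.19 in the control group. With PCB 126 it was -2.15 ± 0.28 at the lowest dose, -2.27 ± 0.16 at 10 nM and -2.18 ± 0.22 at 1 µM. With glyphosate it was -2.04 ± 0.25, -1.94 ± 0.13 and -1.97 ± 0.26, and with Roundup -2.14 ± 0.17. Every group thus overlapped the control group on this measure, which ran from -2.29 to -1.85 there. At 10 nM and 1 µM PCB 126 each library was lower than the control library with the same replicate number. In every other group the direction varied between replicate numbers. These differences were not tested. KRT18, the other tested member, was left out of this mean. At 10 nM KRT18 by name was higher than in the control library with the same replicate number in 4 of 5 cases. With the unnamed transcripts of its locus it was lower in 4 of 5. At 1 µM KRT18 was lower in 4 of 5 by name and in 3 of 5 with the unnamed transcripts.

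Single pairs moved apart or together. SPP1 minus ALB, the albumin gene, was -7.87 ± 0.28 in the control group and -7.89 ± 0.31 at 1 µM, so that both genes were lower by a similar amount. KRT19 minus ALB was -5.24 ± 0.39 in the control group and -5.03 ± 0.78 at 1 µM, and CD24 minus ALB was -7.16 ± 0.23 and -6.76 ± 0.48, and both pairs overlapped between the groups. KRT19 minus HNF4A, the gene of a hepatocyte transcription factor, was 3.86 ± 0.21 in the control group, 2.68 ± 0.40 at 10 nM and 2.58 ± 0.54 at 1 µM, and neither dose overlapped the control range of 3.58 to 4.13. SOX9 minus HNF4A was -1.08 ± 0.16 in the control group and -2.14 ± 0.48 at 1 µM, also without overlap. HNF4A itself stood at 19.5 ± 3.95 FPKM in the control group and at 27.1 ± 9.78 FPKM at 1 µM, and HNF4A was chosen as a partner after its values were seen. The higher mean of KRT19 minus ALB at 1 µM came with 1 library, replicate 1, which stood apart and had -3.88. The other libraries ran from -5.85 to -4.72, against -5.70 to -4.80 in the control group. KRT19 at 1 µM was therefore apart from the control group when set against HNF4A and not when set against ALB.

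Such a gap to HNF4A was common among all genes. Measured against HNF4A, 24.6% of the 9754 other tested genes were lower without overlap at 1 µM, and so were 4 of the 5 tested members, KRT19, SOX9, SPP1 and CD24. At 10 nM the share was 12.5%, and the members were KRT19 and CD24. In the other comparisons no member was apart from the control group, or from glyphosate, on this measure.

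**Figure D5:**
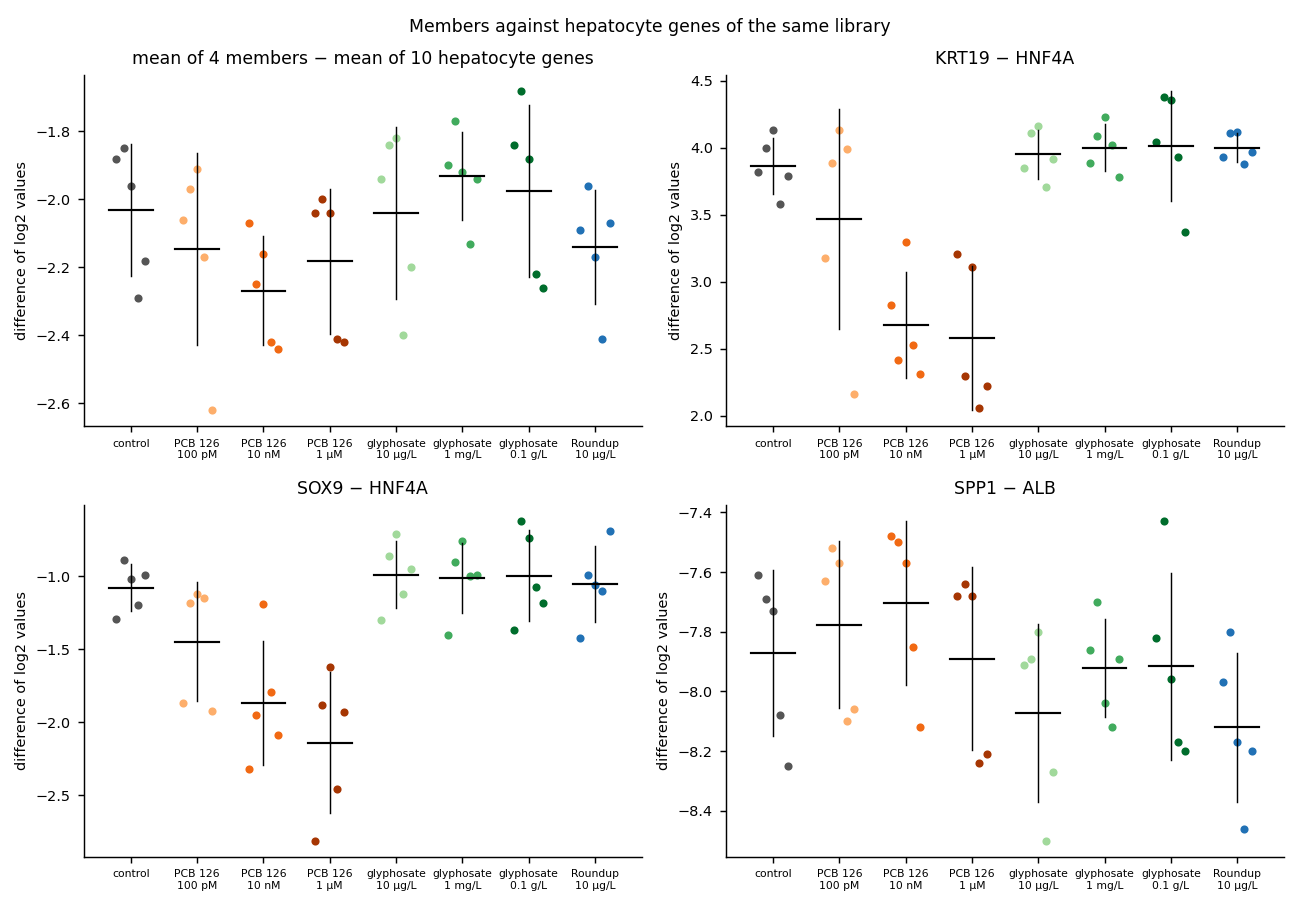
Differences of log2(FPKM + 1) values within a library, by treatment group: the mean of 4 members minus the mean of 10 hepatocyte genes, KRT19 minus HNF4A, SOX9 minus HNF4A and SPP1 minus ALB. Points are the 40 libraries and lines are group means and 1 SD (n = 5), and KRT19 minus HNF4A is lower at 10 nM and 1 µM PCB 126 than in all 5 control libraries.

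Other genes of the biliary and progenitor programme gave a mixed picture. Of 32 such genes, 16 were tested in the PCB 126 table, and 0 passed the threshold at any dose with the values as deposited. The highest control levels among them were those of KRT8, the keratin partner of KRT18, with 242 ± 71.6 FPKM, ANXA4, an annexin of ductal epithelium, with 93.8 ± 31.8 FPKM, CD44, a hyaluronan receptor, with 60.6 ± 19.7 FPKM, and SLC4A2, an anion exchanger of the bile duct, with 50.5 ± 15.5 FPKM. Their values at 1 µM were 179 ± 79.7, 43.3 ± 12.4, 61.9 ± 33.7 and 51.3 ± 5.69 FPKM. At 1 µM 11 of the 16 changes were below 0, with a median of -0.28, close to the -0.26 of all genes. Among the glyphosate and Roundup libraries 15 of the 32 were tested and 0 passed.

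Of 18 Notch and YAP genes, 12 were tested and 1 was lower past the threshold at 1 µM. This was CTGF, a secreted matricellular protein and YAP target, with a log2 fold change of -1.29 ± 0.28 (adjusted p = 0.0116 in limma), from 26.9 ± 7.37 to 10.2 ± 2.18 FPKM. CTGF passed in all 23 alternatives. CYR61, another YAP target, had 38.7 ± 14.4 FPKM in the control group and 69.1 ± 31.5 FPKM at 1 µM, and did not pass. The receptor NOTCH2 had 33.5 ± 9.12 and 31.9 ± 9.46 FPKM, and AMOTL2, a YAP regulator and target, had 27.7 ± 9.76 and 26.4 ± 6.15 FPKM. The median of the list was -0.28 at 1 µM, against -0.26 over all genes.

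Of the 10 hepatocyte genes, all were tested and 2 were lower past the threshold at 1 µM. TTR, which encodes the carrier protein transthyretin, had a log2 fold change of -1.62 ± 0.34 (adjusted p = 0.00797 in limma) and FGB, the fibrinogen beta chain, -1.37 ± 0.33 (adjusted p = 0.0259). TTR passed in 22 of 23 alternatives and FGB in 16, where the adjusted p of FGB reached 0.109 in limma or the ordinary model. Those FGB failed include the fits without control replicate 1, 2 or 4 or without replicate 1 at 1 µM (adjusted p from 0.0548 to 0.0965 in limma). ALB had 11210 ± 1483 FPKM in the control group and 5570 ± 2084 FPKM at 1 µM, SERPINA1, the gene of alpha-1-antitrypsin, had 4210 ± 1631 and 2278 ± 501 FPKM, and APOA1, an apolipoprotein, had 1008 ± 213 and 756 ± 208 FPKM. HNF4A, CYP3A4, a drug-metabolizing cytochrome P450, and ASGR1, a subunit of the asialoglycoprotein receptor, had log2 fold changes of 0.41, 0.39 and 0.12 and did not pass, so that 7 of the 10 were below 0. The median of this list at 1 µM was -0.96, beside -0.87 for the members and -0.26 for all genes.

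Markers of other cells were checked in the same libraries. Of 8 mesenchymal genes, 6 were tested, and COL3A1, a fibrillar collagen, was lower past the threshold at 10 nM (-1.87 ± 0.38, adjusted p = 0.0232 in limma) and at 1 µM (-3.07 ± 0.38, adjusted p = 2.29e-05). At 10 nM it passed in 13 of 23 alternatives, with an adjusted p of up to 0.245 in limma or the ordinary model. Those it failed include the fits without control replicate 2, 3 or 4 or without replicate 1, 2 or 5 of the dose (adjusted p from 0.0513 to 0.105 in limma). At 1 µM it passed in 23 of 23. LUM and DCN, matrix proteoglycans, stood at 50.2 ± 14.0 and 4.95 ± 2.29 FPKM in the control group and at 115 ± 57.9 and 10.7 ± 2.55 FPKM at 1 µM, and PDGFRB, a growth factor receptor, at 5.16 ± 1.57 and 2.60 ± 0.50 FPKM. The part of these genes in the results on the members was not tested. Of 7 endothelial and blood genes, KDR and CD68 were tested with PCB 126 and did not pass, with control means of 2.27 and 1.60 FPKM and means of 0.556 and 1.26 FPKM at 1 µM, while CDH5 was listed at 0 in the control group and at 1 µM, and PTPRC and HBA1 were at or under 0.125 FPKM in all libraries of both groups.

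Likeness across the 40 libraries was computed for the 5 tested members. SOX9 and CD24 had a Pearson r of 0.90, SOX9 and SPP1 of 0.87, SPP1 and CD24 of 0.87, and KRT19 was most like SPP1 with 0.75, while KRT18 by name had 0.46 with both SOX9 and KRT19, 0.51 with CD24 and 0.62 with SPP1. Among 9260 genes compared, the 4 most like the mean profile of the 5 tested members were APOBEC3C (0.968), CBX5 (0.966), PDZD8 (0.966) and RRAGD (0.965). The libraries share their scaling and the contrast with the libraries that stood apart, so these correlations describe the tables and were not tested.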

How the data were processed

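The samples were 40 RNA-seq libraries of HepaRG cells, from 20 ng of total RNA each, depleted of ribosomal RNA and made directional. According to the methods of the study and the labels, the authors aligned the reads to GRCh38 with HISAT2 and assembled and quantified transcripts with StringTie on the Ensembl release 89 annotation. The deposited values are FPKM of 234960 transcripts per library, not pooled and not scaled between libraries, and 35782 of the transcripts carry no gene name. Some columns hold a value below 0 (4 such values with PCB 126, 6 with the herbicides). By the authors' methods the values of these columns, deposited as FPKM and not as a score, were quantified with StringTie before deposit. All columns were read as FPKM, and the values below 0 were set to 0. The same 5 control libraries stand in both tables. FPKM are not counts, so no count test and no counting interval was used, and the depth of each library is not in the tables. The number of libraries, 5 in each group, limits the precision.

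FPKM were summed per gene name. Genes with a variance of FPKM above 1 in a table were tested (9755 and 9533) with limma 3.58.1 in R 4.3.3 on log2(FPKM + 1), all groups of a table in 1 fit, 2-sided, with Benjamini-Hochberg adjustment over all tested genes and a threshold of 0.05. Fold changes are on this scale and understate the change of low genes. The fit was checked on simulated data, in which deviations from the group means were shuffled between libraries for each gene on its own. Shuffling in this way removes differences shared by whole libraries, so the check does not cover the libraries that stand apart. Named genes were the 9 members, the list genes past the threshold with the smallest p (at most 4 in each comparison), the 4 of each list with the highest control mean, and the 5 genes most like the members, of which 1 is not reported here. The members and lists were chosen with earlier results of these data known, and HNF4A was added after its values were seen. Groups came from the labels, and the replicate number is the run, 1 of 5, to which the library number in the title belongs. Alternatives were a pseudocount of 0.1, other filters, 75th-percentile scaling, quantile normalization, least squares with library size as a term, limma with trend and robust prior, fits of 2 groups, a fit without the libraries that stand apart, a replicate block, the most abundant transcript of a gene and leaving out each library, and, chosen after seeing the data, the locus with its unnamed transcripts, with and without scaling. Tables were prepared with pandas 2.3.3 and numpy 2.4.6 in Python 3.11.15, and figures were drawn with matplotlib 3.10.9.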

Additional observations from a re-analysis of the deposited data

Results flagged for a closer look

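In groups of 5 libraries, a value was picked out where its gap to the nearest of the others exceeded 0.71 of the range of the group (Dixon's criterion). Of 69 groups of member values, 8 held such a value, and chance alone picks out about 1 in 20 groups of values without ties. That rate does not apply to 3 EPCAM groups with a single value above 0, which meet the criterion whatever that value is. KRT18 by name stood at 68.95 FPKM in replicate 4 at 1 µM PCB 126, and the other 4 libraries lay between 0.9204 and 4.595 FPKM. EPCAM was listed above 0 in a single library in control replicate 2 (0.04012 FPKM), glyphosate 1 mg/L replicate 2 (0.03873 FPKM) and Roundup replicate 4 (0.03712 FPKM). At 100 pM PCB 126 it stood at 0.07382 FPKM in replicate 2 and at or under 0.003804 FPKM in the others. CFTR stood at 0.3272 FPKM in replicate 2 at 100 pM, above 0.1469 FPKM in the next library, and at 0.1535 FPKM in replicate 2 at 1 µM, above 0.01183 FPKM. PROM1 stood at 0.2042 FPKM in glyphosate 10 µg/L replicate 1, above 0.09513 FPKM.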

How the results depend on the processing

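With the values as deposited no member passed the threshold in any of the 8 comparisons. At 1 µM PCB 126 the number of members called was 1, in each case SPP1, under 75th-percentile scaling, quantile normalization, the ordinary model with a library-size term, the fit without the libraries that stand apart, the replicate block, the locus with unnamed transcripts, and that locus with scaling. It was 0 to 1 when a library was left out, with 1 only without control replicate 5. The SPP1 fold change and adjusted p were -0.85 and 0.0272 in the ordinary model, -1.10 and 0.0255 by locus, and -0.93 and 0.0039 by locus with scaling. In the other 7 comparisons no alternative called a member. Changes that took the other sign at 10 nM were those of SPP1 without the libraries that stand apart (0.05), CD24 by its most abundant transcript (0.81), and KRT18 by locus (-0.20) and by locus with scaling (-0.05), and at 1 µM that of CD24 by its most abundant transcript (0.40). The cause was not tested. In the 6 comparisons described by levels alone, 92 of 690 alternative fits of the 5 members gave the other sign, all for changes of at most 0.25 in size, and 0 passed.

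Replicate numbers follow runs of library numbers, and each run holds a library of every group. What a run stands for is not in the labels. In the last run the control, 10 nM, 1 µM, glyphosate 10 µg/L and Roundup libraries stood apart. The other libraries that stood apart came from earlier runs. Deviations of same-run libraries had a median correlation of 0.0634 (-0.0557 to 0.169) over 30 pairs in the PCB 126 table, against -0.0182 between runs. In the glyphosate table the medians were 0.0688 (-0.17 to 0.36) over 50 pairs and -0.0188. The same-run medians were higher but small, and the main fit did not pair the samples. The part of the run was not tested beyond the replicate block. With the replicate block SPP1 at 1 µM had the same change of -1.10 and an adjusted p of 0.0177, and the block changed no other call of a member. Over all genes the block gave 357 calls at 1 µM against 182, the 75th-percentile scaling 592 (247 higher and 345 lower, against 63 and 119), quantile normalization 1085 (532 and 553), the ordinary model 498, the fit without the libraries that stand apart 520, the locus 374 and the locus with scaling 1089. At 10 nM the counts were 20 as deposited and 69, 184, 46, 56, 37, 35 and 169 under scaling, quantiles, the ordinary model, the fit without libraries apart, the block, the locus and the locus with scaling. In the herbicide comparisons they were 0 as deposited and at most 3. The tables give no number of reads behind a value, which limits KRT7, CFTR, PROM1 and EPCAM.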
